A study of Homo sapiens with 9 samples.

Results

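The 10 genes described here encode enzymes of aldosterone, cortisol and androgen synthesis and of related steroid conversions: CYP11B1, CYP11B2, CYP17A1, CYP21A2, HSD3B1, HSD3B2, SULT2A1, AKR1C3, HSD17B4 and SRD5A1. They were matched by symbol in the array's probe annotation, which gave 17 probe sets of the 54613 that are not controls. Of the 10 genes 9 had a probe set with a single symbol, among 19775 such genes in all. The one probe set of CYP21A2 also carries the symbol of CYP21A1P, its pseudogene, so its values belong to both and it entered only the test across probe sets. Expression was measured on 9 arrays of H295R, a human adrenocortical carcinoma line that makes steroids of all the cortical zones, as a single line with no second adrenal model beside it. A group had 3 arrays, all taken at 3 h: cells in DMSO, the vehicle; cells given angiotensin II at 100 nM; and cells given torcetrapib, a blocker of the plasma cholesteryl ester transfer protein, also at 100 nM. The study asked whether such inhibitors activate the renin-angiotensin-aldosterone system in adrenal cells, and its title concerns aldosterone and cortisol production. No label states that a group's arrays are from different cultures. All p-values here therefore measure the spread between samples that may be technical repeats.

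Steroid synthesis in the adrenal cortex starts when cholesterol enters the mitochondria and is cut to pregnenolone. HSD3B2 and CYP21A2 then lead towards mineralocorticoids and glucocorticoids, CYP17A1 diverts precursors to cortisol and androgens, and the mitochondrial enzymes CYP11B1 and CYP11B2 make the final cortisol and aldosterone. Angiotensin II acts on this pathway in an early phase through delivery of cholesterol and in a late phase through transcription of CYP11B2, whose promoter is known to respond to calcium signalling and to the NR4A nuclear receptors. Bulk RNA cannot tell fewer expressing cells from less RNA in each cell.

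Values are deposited log2 expression after robust multi-array averaging, so a difference of 1 is a doubling. A level is written with its standard deviation (SD, n = 3), a change with its standard error (SE). The median gene lay at 6.73 and the limit of the dimmest 25% of genes at 4.87. All 7 measured markers of the adrenal cortex lay at or above the median gene, against 2 of 6 markers of the adrenal medulla and 1 of 10 markers of fibroblasts, endothelium and immune cells. The mean level of these cortex markers lay between 10.04 and 10.14 on the DMSO arrays, between 10.16 and 10.30 on the angiotensin II arrays, above all DMSO arrays, and between 10.11 and 10.21 on the torcetrapib arrays. Of the 7, limma called 4 higher and 1 lower with angiotensin II and 1 higher with torcetrapib. Of all genes it called 6.12% and 1.16% in either direction. All of the 7 but SCARB1 stand again among the partners and factors described further on. The medulla markers averaged from 5.70 to 5.89 over the arrays, and those of the other cells from 4.88 to 4.99 with DMSO, 4.94 to 5.17 with angiotensin II and 4.92 to 4.96 with torcetrapib. The part of these shifts in the enzyme values was not tested. A sign of RNA quality, the 5′ minus 3′ signal of the ACTB and GAPDH control probe sets, averaged -0.24 ± 0.03 on the torcetrapib arrays, -0.62 ± 0.02 on the angiotensin II arrays and -0.50 ± 0.22 in vehicle, and DMSO replicate 2, at -0.28, lay with the torcetrapib arrays. For probe sets, the limit of the dimmest 25% lay at a mean of 4.12. Within the angiotensin II group, replicate 2 was the lowest array for 10 of the 12 enzyme probe sets not dim by that limit. Replicate 3 was the highest for 10 of 12. Over all 40960 probe sets as bright, those shares were 42.3% and 41.9%.

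No enzyme gene passed the test with either agent. With angiotensin II, limma with Benjamini-Hochberg adjustment over all genes called 0 of the 9 genes, where 6.12% of all genes were called, and 1 of 9 passed an unadjusted p of 0.05, as did 16.5% of all genes. With torcetrapib it called 0 of 9, where 1.16% of all genes were called, and again 1 of 9 passed unadjusted, against 13.3% of all genes. Across all 17 probe sets limma called 0 with angiotensin II, where 2.9% of all probe sets were called, and 3 of 17 passed unadjusted, against 12.7% of all probe sets. With torcetrapib it called 0 of 17, where 0.663% were called, and 1 of 17 passed unadjusted, against 12.6%. The median change of the 9 genes was -0.01 with angiotensin II, against 0.01 for all genes, and -0.06 with torcetrapib, against -0.03 for all genes. The 95% intervals give how large a missed change could be, judged by the spread between these arrays. Where the arrays are technical repeats, the intervals leave out the spread between cultures. By the brightest probe set of each gene, no interval of the 6 genes at or above the median gene reached beyond a 1.21-fold change with angiotensin II or a 1.24-fold change with torcetrapib, while over all 9 genes they reached 1.49-fold and 1.38-fold, in both cases for CYP11B2. Other probe sets of these 6 genes allowed more: 210959_s_at of SRD5A1 reached 1.48-fold with angiotensin II and 1.43-fold with torcetrapib, and 206292_s_at of SULT2A1 reached 1.27-fold with torcetrapib. Groups that did not overlap with DMSO were found for 2 of 9 genes with angiotensin II (17.6% of all genes) and 1 of 9 with torcetrapib (16.5% of all genes). By probe set they were 2 of 17 with angiotensin II (14.3% of all probe sets) and 2 of 17 with torcetrapib (16% of all probe sets).

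**Figure D1:**
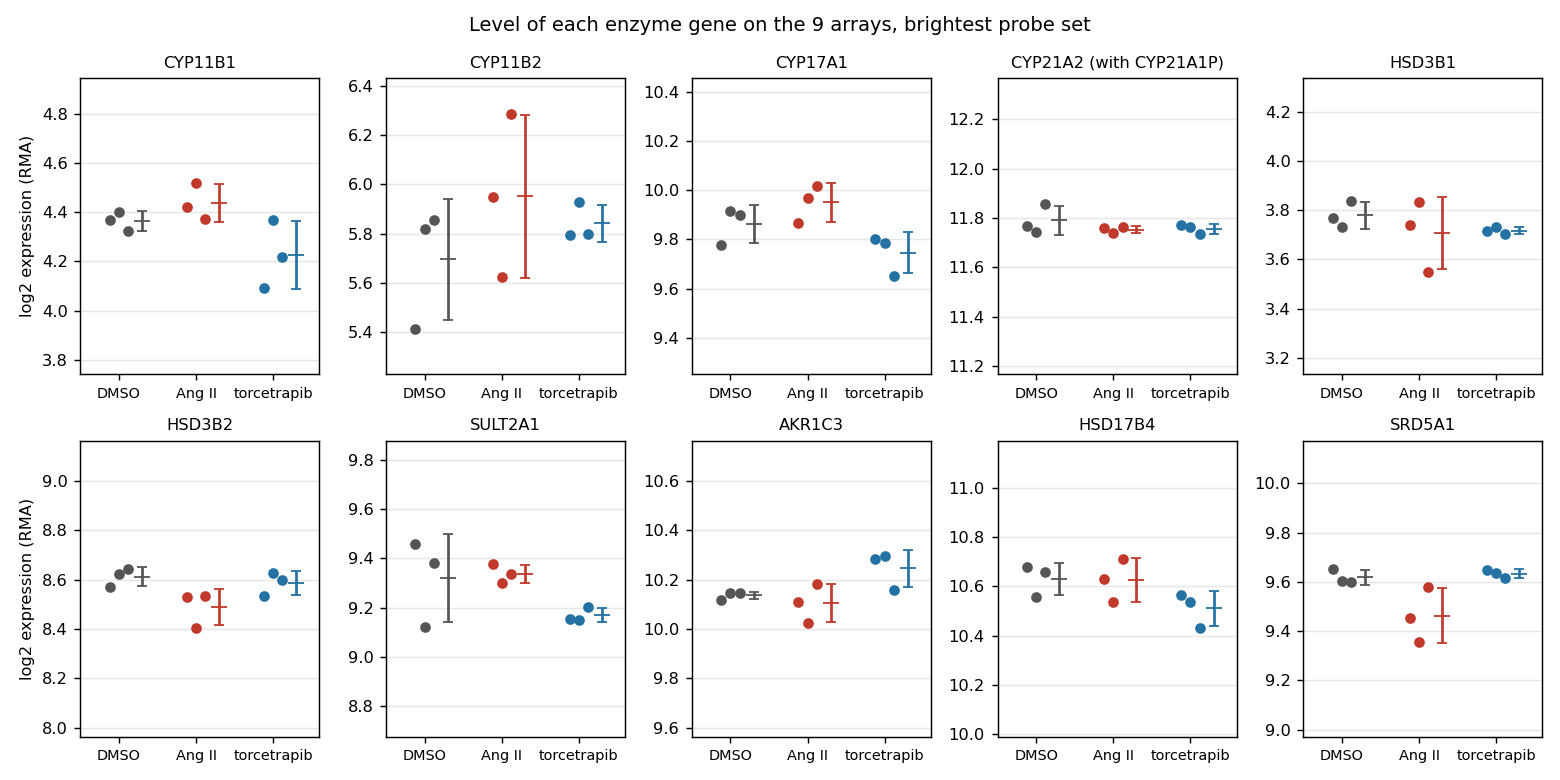
Log2 expression of each enzyme gene by its brightest probe set, with a point for each of the 3 arrays of a group and, beside them, the mean with SD; every panel spans the same 1.2 log2 units. The points of CYP11B2 are the most scattered, those of CYP21A2 (shared with CYP21A1P) lie closest together, and the 3 torcetrapib arrays of CYP17A1 lie below the 3 angiotensin II arrays.

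The direct comparison of both agents at the same dose and time called 1 of the 9 genes, CYP17A1, where 11.3% of all genes were called, and 5 of 9 passed an unadjusted p of 0.05, as did 24.8% of all genes. By probe set it called 1 of 17, a probe set of SRD5A1, where 9.18% of all probe sets were called, and 6 of 17 passed unadjusted, against 22.6% of all probe sets. The arrays of both agents did not overlap for 5 of 9 genes, against 28.6% of all genes, and for 7 of 17 probe sets, against 26.6% of all probe sets. The shares called lay near those of all genes and probe sets. Since this comparison and the comparisons with DMSO share arrays, they are not independent of each other. Of the 7 cortex markers 1 was higher and 3 were lower with torcetrapib than with angiotensin II. Of the 10 markers of fibroblasts, endothelium and immune cells 1 was called, COL3A1, a fibrillar collagen named here after its values were seen. It was lower with torcetrapib (-0.36, adjusted p = 0.0268), and its part in the enzyme results was not tested.

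**Figure D2:**
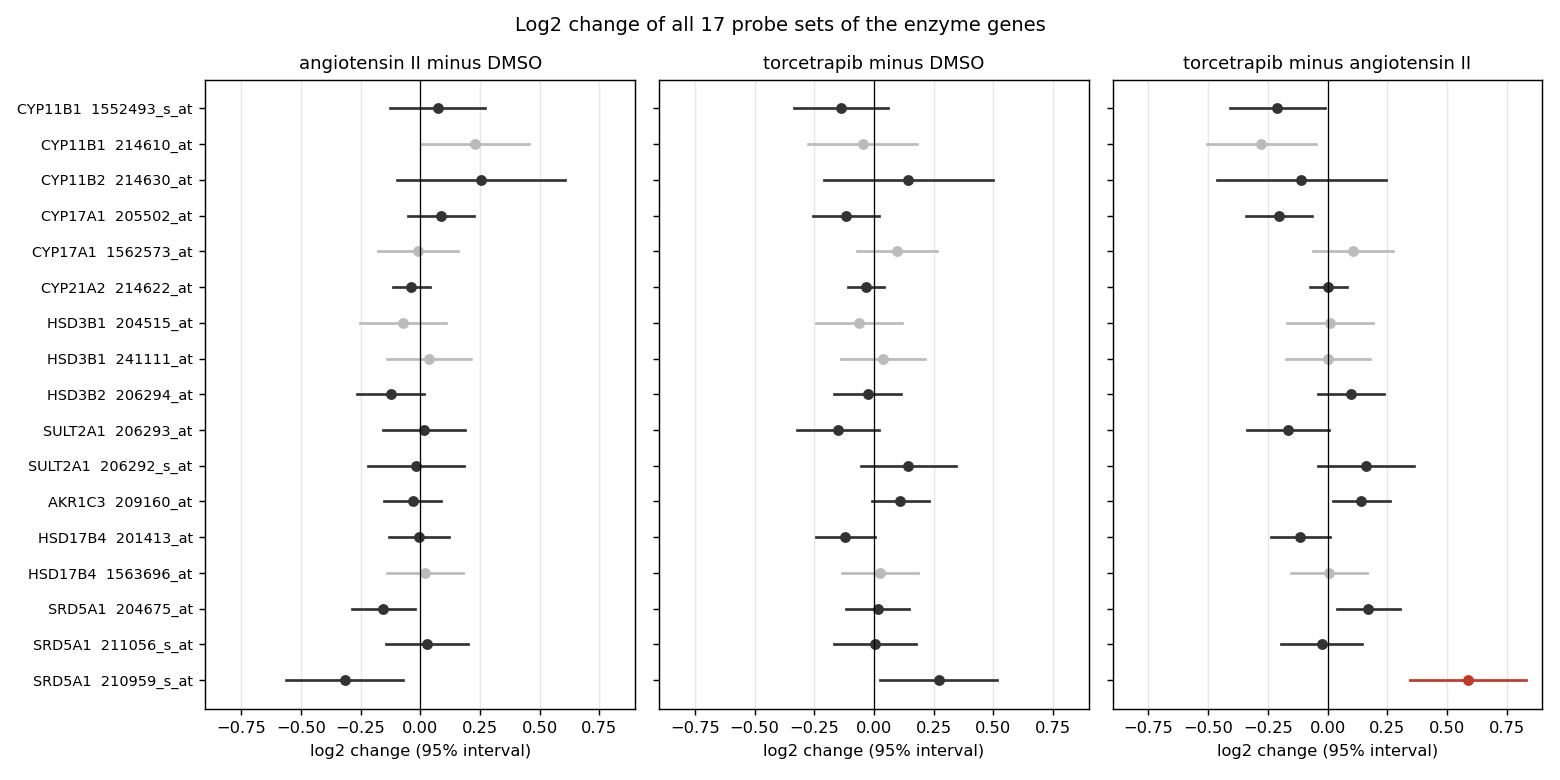
Log2 change with its 95% interval for all 17 probe sets in the 3 comparisons, with grey for the dimmest 25% of all probe sets and red for an adjusted p under 0.05 over all probe sets. The 1 red interval is SRD5A1 probe set 210959_s_at with torcetrapib against angiotensin II, at 0.59; every interval of CYP21A2 stays close to 0.

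CYP11B2, aldosterone synthase, makes aldosterone in the zona glomerulosa and is the enzyme most tied to the action of angiotensin II. Its single probe set, 214630_at, gave 5.41, 5.82 and 5.85 with DMSO, 5.95, 5.62 and 6.28 with angiotensin II, and 5.80, 5.93 and 5.80 with torcetrapib. DMSO replicate 1 was the lowest of the 9 arrays and angiotensin II replicate 3 the highest, and each pair of groups overlapped. The order of the means was DMSO (5.70 ± 0.25), torcetrapib (5.84 ± 0.08) and angiotensin II (5.95 ± 0.33), and no neighbours in it differed beyond their spread. The change was 0.25 ± 0.15 (SE) with angiotensin II, with a 95% interval from -0.07 to 0.58 (adjusted p = 0.460), and 0.14 ± 0.15 with torcetrapib, with an interval from -0.18 to 0.47 (adjusted p = 0.757). Single arrays moved both of these widely. The change with angiotensin II was 0.09 without angiotensin II replicate 3, 0.11 without DMSO replicate 1 and 0.42 without angiotensin II replicate 2. That with torcetrapib was 0.0034 without DMSO replicate 1, 0.21 without DMSO replicate 2 and 0.22 without DMSO replicate 3. Only with array weights, which put angiotensin II replicate 1 at 6.15 and the other arrays of its group at 0.448 and 0.480, did the angiotensin II change pass (0.35, adjusted p = 0.0431, over all its alternatives 0.0431 to 0.823). With the RNA quality value in the model, the torcetrapib change of CYP11B2 was -0.12.

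CYP11B1, which makes cortisol in the zona fasciculata, was dim. Its brighter probe set, 1552493_s_at, had means of 4.36 ± 0.04 in vehicle, 4.44 ± 0.08 after angiotensin II and 4.23 ± 0.14 after torcetrapib. Its arrays, between 4.09 and 4.52, all lay under the limit of the dimmest 25% of genes. The changes were 0.07 ± 0.09 with angiotensin II (adjusted p = 0.804) and -0.14 ± 0.09 with torcetrapib (adjusted p = 0.569). The second probe set, 214610_at, lay between 3.17 and 3.73 over all arrays. It gave a change of 0.23 ± 0.10 with angiotensin II (unadjusted p = 0.0481, limma adjusted p = 0.387 over all probe sets) and -0.05 ± 0.10 with torcetrapib. Between the agents, all torcetrapib arrays lay below all angiotensin II arrays by both CYP11B1 probe sets, with differences of -0.21 ± 0.09 (adjusted p = 0.162) and -0.28 ± 0.10 (adjusted p = 0.133). CYP11B1 and CYP11B2 are near-identical copies that lie next to each other. The annotation gives each of these probe sets 1 symbol, and whether a probe set also binds RNA of the other gene was not tested.

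CYP17A1, a hydroxylase and lyase of the endoplasmic reticulum, commits precursors to cortisol and to androgens. By probe set 205502_at it lay at 9.78, 9.92 and 9.90 with DMSO, at 9.86, 9.97 and 10.02 with angiotensin II, and at 9.80, 9.79 and 9.65 with torcetrapib. The torcetrapib arrays were all below the angiotensin II arrays, and both groups overlapped with DMSO, which lay between them. Against DMSO its change was 0.09 ± 0.06 with angiotensin II (adjusted p = 0.556) and -0.12 ± 0.06 with torcetrapib (adjusted p = 0.425). The levels with torcetrapib were 1.15-fold lower than with angiotensin II (log2 difference -0.20 ± 0.06, 95% interval -0.33 to -0.08, adjusted p = 0.0395). That call was present in 6 of 16 alternatives, with adjusted p from 0.0162 to 0.693. It ended without any one array of the 2 groups other than angiotensin II replicate 1, namely without angiotensin II replicate 2 or 3 (adjusted p = 0.100 and 0.116) or torcetrapib replicate 1, 2 or 3 (0.0655, 0.0729 and 0.171). With the mean of its probe sets it was -0.05 (adjusted p = 0.693), and with array weights -0.11 (adjusted p = 0.0592). The call was also absent over all probe sets (adjusted p = 0.0673). The RNA quality value separates the same groups, and with it in the model the difference was -0.32 ± 0.10 (adjusted p = 0.21). The other CYP17A1 probe set, 1562573_at, lay between 2.87 and 3.24, near the lowest value on the arrays, 2.50, and its 3 changes lay between -0.01 and 0.11.

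CYP21A2, the hydroxylase shared by the aldosterone and cortisol branches, had the steadiest values of the 10 genes. Probe set 214622_at, which cannot separate the gene from CYP21A1P, lay at 11.77, 11.74 and 11.86 with DMSO. It lay between 11.74 and 11.76 with angiotensin II and between 11.73 and 11.77 with torcetrapib, so the groups overlapped. The changes were -0.04 ± 0.04 with angiotensin II (95% interval -0.11 to 0.04, adjusted p = 0.758 over all probe sets) and -0.03 ± 0.04 with torcetrapib (interval -0.11 to 0.04, adjusted p = 0.771), and the agents differed by 0.00 ± 0.04 (adjusted p = 0.971).

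HSD3B2, the dehydrogenase and isomerase of the adrenal gland and gonads, feeds every active steroid that the cortex secretes. By probe set 206294_at it lay at 8.57, 8.62 and 8.64 with DMSO, at 8.53, 8.40 and 8.53 with angiotensin II, and at 8.53, 8.63 and 8.60 with torcetrapib. All angiotensin II arrays were below all DMSO arrays, and the torcetrapib arrays overlapped with DMSO. The change with angiotensin II was -0.12 ± 0.06, with a 95% interval from -0.26 to 0.01 (adjusted p = 0.363), and lay between -0.14 and -0.08 in its alternatives without a call. With torcetrapib it was -0.03 ± 0.06 (adjusted p = 0.918), and all torcetrapib arrays lay above all angiotensin II arrays by a mean of 0.10 ± 0.06 (adjusted p = 0.367). HSD3B1, the form of placenta and skin, was dim. Its probe sets 204515_at and 241111_at lay between 3.55 and 3.89 over all arrays. By the latter, 4 of the 9 arrays hold exactly the same deposited value, as happens on at least a pair of arrays for 52.1% of all probe sets. The HSD3B1 changes were -0.07 ± 0.08 and 0.04 ± 0.08 with angiotensin II and -0.06 ± 0.08 and 0.04 ± 0.08 with torcetrapib.

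The NR4A receptors, known activators of steroid enzyme genes, rose with both agents, while no enzyme gene was called against DMSO. Whether these receptors act on the enzyme genes here was not tested. The proximal promoters of CYP21A2, HSD3B1, HSD3B2 and CYP17A1 are shown. Of the promoters searched, only those of CYP21A2, HSD3B1 and CYP17A1 held a nuclear receptor motif, and HSD3B2 is set beside HSD3B1. The sequences are RefSeq's (GRCh38.p14), from 250 bases before to 50 bases after the annotated start, and were matched by symbol. The search took 8 of the 10 genes, and those left out are named below. Capitals mark AGGTCA, the half-site of nuclear receptors, on either strand, with the preceding AA where it forms the NR4A monomer site AAAGGTCA. The windows of CYP21A2, HSD3B1, HSD3B2 and CYP17A1 lie at chr6:32038165-32038464 (plus strand), chr1:119506953-119507252 (plus), chr1:119414681-119414980 (plus) and chr10:102837364-102837663 (minus). For HSD3B1, which has 2 annotated starts, the first is shown.
CYP21A2: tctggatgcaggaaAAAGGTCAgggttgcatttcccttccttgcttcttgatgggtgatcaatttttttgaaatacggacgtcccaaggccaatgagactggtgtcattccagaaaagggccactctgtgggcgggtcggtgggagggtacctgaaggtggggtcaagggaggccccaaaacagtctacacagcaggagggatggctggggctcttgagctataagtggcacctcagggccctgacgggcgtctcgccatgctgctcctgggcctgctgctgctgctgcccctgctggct
HSD3B1: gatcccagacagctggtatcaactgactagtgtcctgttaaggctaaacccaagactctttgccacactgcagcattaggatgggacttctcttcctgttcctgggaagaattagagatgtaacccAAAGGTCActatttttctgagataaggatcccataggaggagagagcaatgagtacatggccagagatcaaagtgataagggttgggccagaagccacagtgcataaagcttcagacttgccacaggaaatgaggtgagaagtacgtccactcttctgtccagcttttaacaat
HSD3B2: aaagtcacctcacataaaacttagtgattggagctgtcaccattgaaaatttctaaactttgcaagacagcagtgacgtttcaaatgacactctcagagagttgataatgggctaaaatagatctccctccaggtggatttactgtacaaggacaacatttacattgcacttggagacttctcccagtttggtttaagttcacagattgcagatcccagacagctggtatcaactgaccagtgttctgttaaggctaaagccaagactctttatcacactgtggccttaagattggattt
CYP17A1: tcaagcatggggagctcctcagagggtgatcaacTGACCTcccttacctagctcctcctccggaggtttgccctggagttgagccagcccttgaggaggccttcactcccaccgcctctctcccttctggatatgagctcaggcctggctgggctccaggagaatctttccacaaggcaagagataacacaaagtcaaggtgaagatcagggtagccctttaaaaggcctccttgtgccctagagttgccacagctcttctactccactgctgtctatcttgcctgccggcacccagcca

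The promoters of 8 enzyme genes were searched on both strands. Those of CYP11B1 and CYP11B2 were left out of the search, so the counts say nothing of these genes. Of the 8, 2 held AAAGGTCA, that of CYP21A2 at 236 bases and that of HSD3B1 at 124 bases before the start. The same letters stood in 1.22% of all 35116 promoter windows of this length. The half-site AGGTCA, which AAAGGTCA contains, stood in 3 of 8, with CYP17A1 as the third, and in 13.8% of all windows. The full cAMP response element TGACGTCA stood in 0 of 8, and in 1.85% of all windows. TATAAA stood in 1 of 8, that of AKR1C3, on the strand opposite to the gene, and in 11.5% of all windows. HSD3B2 held neither nuclear receptor motif in this window. Its last 89 bases line up with the first 89 bases of the HSD3B1 window, with 78 of them identical and a longest shared run of 27 bases. The AAAGGTCA of HSD3B1, at 124 bases before its start, lies beyond those 89 bases. The HSD3B2 window therefore does not cover the matching stretch, and the motif search cannot compare these genes there. A match of letters is no measured site, and its absence says nothing of sites outside the window.

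SULT2A1, the sulfotransferase that makes dehydroepiandrosterone sulfate, was measured by a pair of probe sets that disagreed. By the brighter, 206293_at, it lay at 9.46, 9.12 and 9.38 with DMSO, at 9.38, 9.30 and 9.33 with angiotensin II, and at 9.16, 9.15 and 9.20 with torcetrapib. All torcetrapib arrays were below all angiotensin II arrays, and DMSO replicate 2 was below them all. The change with torcetrapib was -0.15 ± 0.07 (adjusted p = 0.401). Without DMSO replicate 2, whose RNA quality value lay with the torcetrapib arrays, it was -0.25 and passed (adjusted p = 0.0201), and with the RNA quality value in the model it was 0.04. By the other probe set, 206292_s_at, SULT2A1 lay at 8.63, 8.67 and 8.77 with DMSO, at 8.76, 8.45 and 8.81 with angiotensin II and at 8.89, 8.86 and 8.76 with torcetrapib. That gave a torcetrapib change of the opposite sign, 0.14 ± 0.09 (adjusted p = 0.583 over all probe sets). Over the 9 arrays these probe sets had r = -0.306, a description with no test. Averaged over both, the change of SULT2A1 was -0.00 with either agent. Between the agents the brighter gave -0.17 ± 0.07 (adjusted p = 0.171) and the other 0.16 ± 0.09 (adjusted p = 0.333).

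AKR1C3, an aldo-keto reductase that makes testosterone from androstenedione, stayed within narrow bounds with DMSO. By probe set 209160_at it lay at 10.12, 10.14 and 10.14 with DMSO, at 10.11, 10.02 and 10.18 with angiotensin II, and at 10.28, 10.30 and 10.16 with torcetrapib. All torcetrapib arrays were above all DMSO arrays and overlapped with angiotensin II. The torcetrapib change was 0.11 ± 0.05, with a 95% interval from -0.00 to 0.22 (adjusted p = 0.393), and was between 0.08 and 0.15 in its alternatives without a call. The change with angiotensin II was -0.03 ± 0.05 (adjusted p = 0.868), and the agents differed by 0.14 ± 0.05 (adjusted p = 0.107). AKR1C3 belongs to a family of near-identical neighbours (AKR1C1, AKR1C2 and AKR1C4), and whether its probe set binds their RNA was not tested.

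HSD17B4, a peroxisomal enzyme of fatty acid oxidation that also oxidises estradiol, lay at 10.68, 10.56 and 10.66 with DMSO by probe set 201413_at. It lay at 10.63, 10.54 and 10.71 with angiotensin II and at 10.56, 10.54 and 10.43 with torcetrapib. The groups overlapped, with torcetrapib replicate 3 the lowest array. Its change with angiotensin II was -0.01 ± 0.05 (adjusted p = 0.980). With torcetrapib it was -0.12 ± 0.05 (unadjusted p = 0.0436, limma adjusted p = 0.356). No other of the 9 genes passed an unadjusted p of 0.05 with torcetrapib. The agents differed by -0.11 ± 0.05 (adjusted p = 0.207). The second HSD17B4 probe set, 1563696_at, lay between 2.90 and 3.13, with changes of 0.02 ± 0.07 with angiotensin II and 0.03 ± 0.07 with torcetrapib.

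SRD5A1, the steroid reductase that turns testosterone into dihydrotestosterone, held the largest difference between the agents among the 17 probe sets, and its 3 probe sets did not move alike. The brightest, 204675_at, lay at 9.65, 9.60 and 9.60 with DMSO, at 9.45, 9.35 and 9.58 with angiotensin II, and at 9.65, 9.64 and 9.61 with torcetrapib. All angiotensin II arrays were below the other 6. The change with angiotensin II was -0.16 ± 0.06 (95% interval -0.28 to -0.03, unadjusted p = 0.0173, limma adjusted p = 0.160), and passed without angiotensin II replicate 3 (-0.21, adjusted p = 0.0355) and with array weights (-0.17, adjusted p = 0.00999), where its alternatives ran from 0.00999 to 0.459. With torcetrapib it was 0.02 ± 0.06 (adjusted p = 0.949). The agents differed by 0.17 ± 0.06 (adjusted p = 0.0732), a difference that passed in 4 of 16 alternatives (adjusted p from 0.0017 to 0.614).

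By SRD5A1 probe set 210959_s_at the values were 7.92, 8.17 and 8.17 with DMSO, 7.82, 7.51 and 7.98 with angiotensin II, and 8.33, 8.35 and 8.38 with torcetrapib. The torcetrapib arrays lay above the other 6, while angiotensin II overlapped with DMSO. The level was higher with torcetrapib than with angiotensin II, by 0.59 ± 0.11 on the log2 scale (95% interval 0.34 to 0.83, or 1.27-fold to 1.78-fold, adjusted p = 0.0074 over all probe sets). Neither side of it passed against DMSO, with -0.32 ± 0.11 for angiotensin II (adjusted p = 0.22) and 0.27 ± 0.11 for torcetrapib (adjusted p = 0.336). The difference was called without any single array, without the variance trend and with quantile normalisation, from 0.46 to 0.69 (adjusted p from 0.00411 to 0.0362). It was no longer called with the RNA quality value in the model, an alternative chosen after seeing the data (0.36 ± 0.18, adjusted p = 0.724). By probe set 211056_s_at, which lay between 8.89 and 9.18 over all arrays, the difference between the agents was -0.02 ± 0.08 (adjusted p = 0.890). Over the 9 arrays 204675_at had r = 0.841 with 210959_s_at and r = 0.281 with 211056_s_at. Probe sets ending in _s_at can match several transcripts, and the RefSeq table lists a transcribed pseudogene of SRD5A1, whose part in these values was not tested.

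**Figure D3:**
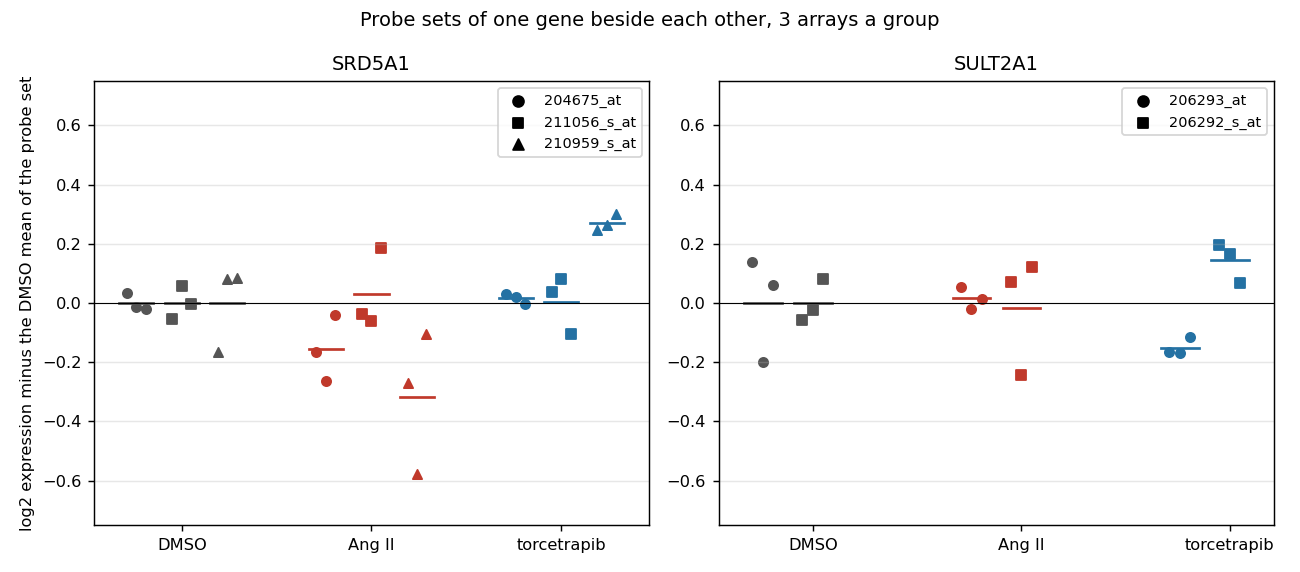
Log2 expression on each array minus the DMSO mean of that probe set, for the 3 probe sets of SRD5A1 and the 2 of SULT2A1, with a line at each group mean. In SRD5A1 the torcetrapib arrays lie above DMSO by 210959_s_at but not by the other probe sets, and in SULT2A1 the probe sets move in opposite directions with torcetrapib.

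Some genes that supply or regulate these enzymes moved. Of 11 measured pathway partners, which deliver cholesterol or electrons or receive hormone signals, 3 rose and 1 fell with angiotensin II, and 1 rose and 0 fell with torcetrapib. Of all genes limma called 6.12% and 1.16% in either direction. The lists of partners, factors and other enzymes were chosen with earlier results of these data known, so their counts are a description and no test. The median changes of the partners were 0.02 and 0.04, against 0.01 and -0.03 for all genes. FDX1, the ferredoxin that supplies electrons to CYP11B1 and CYP11B2, rose from 11.64 with DMSO to 12.30 with angiotensin II (change 0.66, adjusted p = 2.58e-06) and to 12.01 with torcetrapib (0.37, adjusted p = 0.00717). STAR, the carrier of cholesterol into mitochondria, rose by 0.20 and the corticotropin receptor MC2R by 0.41 with angiotensin II, and AGTR1, the angiotensin receptor, fell by 0.32. With torcetrapib STAR, MC2R and AGTR1 had changes of 0.08, 0.21 and -0.07 that did not pass. CYP11A1, which makes pregnenolone, had changes of 0.02 and -0.08 that did not pass (adjusted p = 0.887 and 0.456). POR, the electron donor of CYP17A1 and CYP21A2, was lower with torcetrapib than with angiotensin II (-0.24, adjusted p = 0.00508), the same direction as CYP17A1, and did not pass with the RNA quality value in the model (-0.17, adjusted p = 0.573). Several of these calls ended in alternatives. The FDX1 rise with torcetrapib kept its size when the variance trend was left out (0.37, adjusted p = 0.146) or torcetrapib replicate 2 was left out (0.35, adjusted p = 0.0567), without passing. It was smaller with the mean of probe sets (0.23, adjusted p = 0.0771) and with the RNA quality value (0.18, adjusted p = 0.309). The MC2R rise did not pass without DMSO replicate 3 (0.29, adjusted p = 0.0853), angiotensin II replicate 2 (0.40, adjusted p = 0.0586) or angiotensin II replicate 3 (0.37, adjusted p = 0.0727), nor with only the 2 groups compared (0.41, adjusted p = 0.0751). The STAR rise kept its size and did not pass when the variance trend was left out (adjusted p = 0.0891). AGTR1 rests on an _s_at probe set and had no value with such probe sets left out.

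Of 13 measured transcription factors with known sites on steroid enzyme genes, 5 rose and 1 fell with angiotensin II, and 4 rose with torcetrapib while 0 fell. The shares of all genes called were 6.12% and 1.16%, and this list too was chosen with earlier results known. NR4A2, NR4A3 and NR4A1 rose by 4.85, 2.97 and 2.73 with angiotensin II and by 3.63, 1.46 and 1.36 with torcetrapib. The cAMP-responsive factor CREM rose by 0.32 and 0.28. NR2F1, an orphan receptor that binds the CYP11B2 promoter, rose by 0.93 and GATA6, a regulator of adrenal androgen genes, fell by 0.68 with angiotensin II, where torcetrapib gave -0.03 and -0.16. NR5A1, the master regulator of steroid enzyme genes, had changes of -0.04 and 0.16 (adjusted p = 0.935 and 0.710), and ATF2 was lower with torcetrapib than with angiotensin II (-0.22, adjusted p = 0.0348). NR4A1 and NR4A2 were measured by _x_at probe sets and CREM by an _s_at probe set, types that can match several transcripts. With both types left out, 12 of the 13 factors were measured, and those that rose were 2 in place of 5 with angiotensin II and 1 in place of 4 with torcetrapib. NR4A2, which had the largest rise, then had no value, NR4A1 had changes of 0.32 and 0.12 (adjusted p = 0.0796 and 0.718), and CREM of -0.05 and -0.01. Without the variance trend the torcetrapib rise of CREM was 0.28 and did not pass (adjusted p = 0.135). The ATF2 difference was called in 7 of 16 alternatives and was 0.05 with the mean of its probe sets. The median changes of the list were 0.02 with angiotensin II and 0.00 with torcetrapib.

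Of 29 other measured steroid hormone enzymes 1 rose and 0 fell with angiotensin II, where limma called 6.12% of all genes. With torcetrapib it called 0 of the 29, where 1.16% of all genes were called. At an unadjusted p of 0.05, 3 of the 29 passed with torcetrapib, as did 13.3% of all genes. The rise with angiotensin II was of CYP19A1, the aromatase that makes estrogens, from 5.63 with DMSO to 6.49 (change 0.86, adjusted p = 0.000132). With torcetrapib CYP19A1 lay at 5.97, 0.35 above DMSO without passing (adjusted p = 0.188), and the agents differed by -0.51 (adjusted p = 0.00871; with the RNA quality value -0.37, adjusted p = 0.662). Between the agents 1 of the 29 was lower with torcetrapib and 0 were higher, where 11.3% of all genes were called. Array weights gave other counts for these 29, with 5 higher and 0 lower after angiotensin II, 3 higher and 0 lower after torcetrapib, and 4 higher and 6 lower between the agents. The median changes of these 29 enzymes were 0.04 and 0.02, and 9 of them lay among the dimmest 25% of genes.

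**Figure D4:**
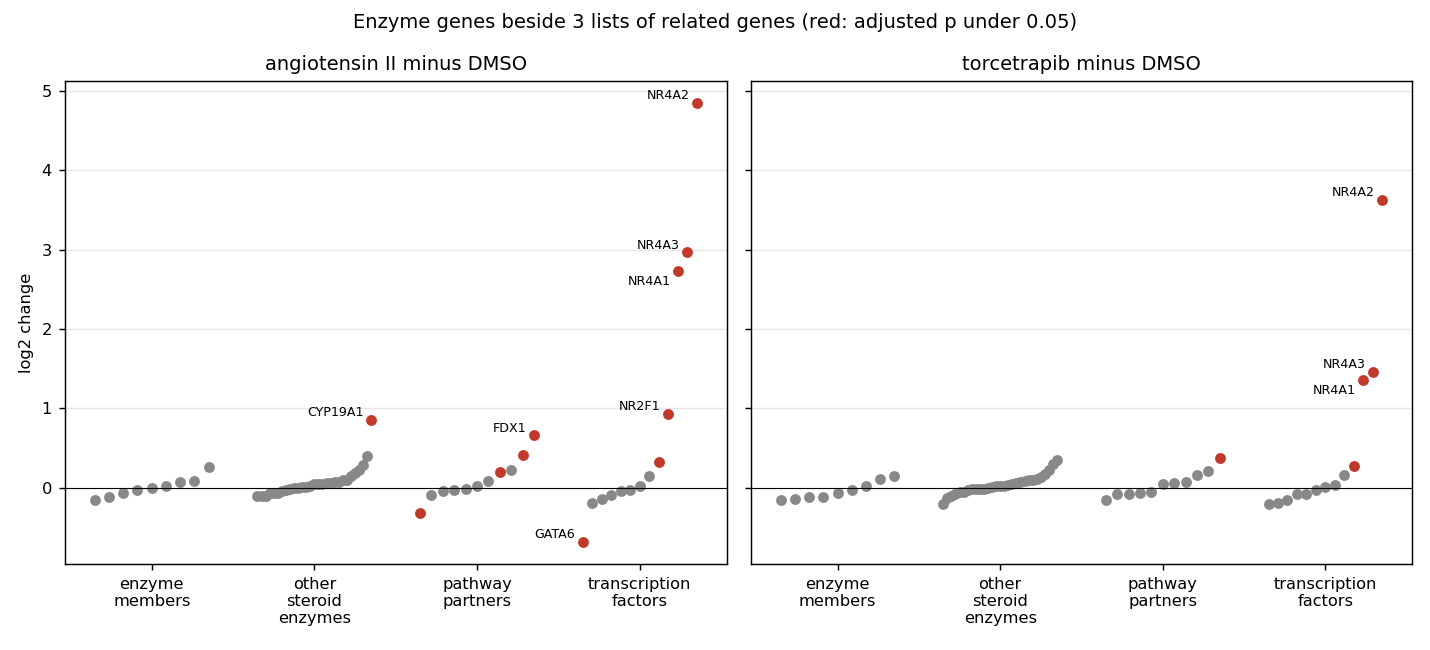
Log2 change of the 9 enzyme genes beside 29 other steroid enzymes, 11 pathway partners and 13 transcription factors, each point a gene and each group sorted by value, with red for an adjusted p under 0.05. No enzyme gene is red with either agent, and the red points above 1 are NR4A1, NR4A2 and NR4A3.

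The genes with the profile most like that of CYP11B2 over the 9 arrays, among the 9888 others at or above the median gene, were IPPK, ANKRD12 and OSER1, with r = 0.964, 0.948 and 0.938. Like CYP11B2, none of them passed with either agent: their changes were 0.13, 0.20 and 0.12 with angiotensin II and 0.05, 0.06 and 0.07 with torcetrapib. For CYP17A1 they were BMS1, KATNAL1 and WDR37, with r = 0.954, 0.950 and 0.942 among 9887 genes. These r are the highest among all those genes over 9 arrays that share 3 treatments, and are given as a description.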

How the data were processed

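The authors deposited log2 values for each probe set. Robust multi-array averaging made them, per the submitters' processing notes. The software and the chip description were not given in the sources used here. Controls (62 probe sets) were dropped. Of the others, 41091 carried 1 gene symbol in the array annotation, 1801 several and 11721 none, and symbols were brought up to date by gene ID. Each of 19775 genes took its brightest probe set by the mean of all 9 arrays.

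One model with 3 group means was fitted with limma 3.58.1 in R 4.3.3, to all genes and again to all 54613 probe sets, with 6 residual degrees of freedom and an intensity trend in the variance. P-values are two-sided and adjusted by Benjamini-Hochberg over each table, with a threshold of 0.05; 95% intervals are unadjusted. The number of arrays limits the precision. The named genes are the 10 enzymes with all their probe sets, the genes of 3 lists past the test in any comparison, STAR, CYP11A1, NR5A1 and CYP19A1, and the 3 closest profiles of CYP11B2 and of called enzymes. The members and lists were chosen with earlier results of these data known. List members without a probe set of 1 symbol were not analysed here. The fit was tested on simulated data. Alternatives were other variance moderation, a filter on dim genes, other scaling, other probe set choices, array weights, 2 groups alone, the RNA quality value as a covariate and each array left out. Arrays are numbered here from 1 to 3 within a group, in the order of the records; the numbers pair no arrays.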

Additional observations from a re-analysis of the deposited data

How the results depend on the processing

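The count of enzyme genes called with angiotensin II was 2 with array weights (CYP11B2 and SRD5A1) and 0 to 1 with single arrays left out, against 0. With torcetrapib it was 1 with array weights (SULT2A1) and 0 to 1 with single arrays left out, against 0. Between the agents it was 0 without the variance trend, with arrays centred on their median and with the RNA quality value in the model, 2 with values quantile normalised again and with only the 2 groups compared, 5 with array weights (CYP11B1, SULT2A1, AKR1C3, HSD17B4 and SRD5A1, not CYP17A1), and 0 to 1 with single arrays left out, against 1. With the mean of probe sets and without angiotensin II replicate 3 it was again 1, but of SRD5A1 in place of CYP17A1. The count of probe sets called between the agents was 2 after quantile normalisation, 0 with the RNA quality value and 1 to 3 with single arrays left out, against 1; with torcetrapib against DMSO it was 0 to 1 with single arrays left out, against 0.

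Over all genes, 229 were called with torcetrapib, 51.1% of them higher. That count was 50 without the trend (80% higher), 120 with centred arrays (65.8% higher), 508 after quantile normalisation (33.9% higher), 108 with the mean of probe sets (81.5% higher), 136 without _x_at and _s_at probe sets (51.5% higher), 1272 with array weights (41.5% higher), 145 with 2 groups alone (61.4% higher), 76 with the RNA quality value (93.4% higher) and 83 to 917 with single arrays left out, the highest without DMSO replicate 2 (31.3% higher). With angiotensin II, 1210 genes were called, 2712 with array weights and 956 to 1171 with single arrays left out. Between the agents 2232 genes were called, 40.8% of them higher with torcetrapib, 6216 with array weights, 280 with the RNA quality value and 1351 to 2193 with single arrays left out; with the mean of probe sets most were higher (57.6% of 2308). The causes were not tested. No called change of an enzyme gene turned in sign in these alternatives. Of the named genes of the lists, CREM did without _x_at and _s_at probe sets (-0.0544 with angiotensin II and -0.00545 with torcetrapib) and ATF2 with the mean of probe sets (0.0530 between the agents); alternatives for listed genes were chosen after seeing the data. No paired analysis was possible because the labels give no replicate numbers that the groups share; the numbers 1 to 3 used here only name arrays. Signal limits CYP11B1 and HSD3B1, which lie among the dimmest 25% of genes.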
